A study of Mus musculus with 3 samples.

Results

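The Sall genes Sall1, Sall2, Sall3 and Sall4 encode the mouse spalt-like zinc-finger transcription factors. Regions bound in Runx1 chromatin immunoprecipitation and sequencing (ChIP-seq) were taken as members where the authors' annotated tables assigned them to 1 of these 4 gene symbols. The family was selected on a measured value, the breadth of the Sall1 region of replicate 3, and that breadth and the folds of the same lists are given as a description. There were 14 such regions among 15286 in all, and they fell on 3 of the 4 genes. Each overlapped the RefSeq gene of the same symbol or lay within 1424 bp of it. Replicate 1 had 0 of its 451 regions there, replicate 2 had 5 of 1641 and replicate 3 had 9 of 13194. The chromatin came from spinal cord cells of male C57BL/6J mice aged 8 to 10 weeks, with 10 cords pooled for each of the 3 immunoprecipitations. All 3 replicates formed 1 group and shared the antibody, a rabbit polyclonal against Runx1, and the labels named no treatment or genotype contrast. An input or IgG library was not analysed here. The labels did not say whether animals or chromatin were shared between the replicates, so differences between them may be technical.

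SALL proteins bind DNA through pairs of C2H2 zinc fingers and act largely as repressors, recruiting the NuRD complex, a nucleosome remodelling and histone deacetylase complex, through a short amino-terminal motif. In the adult central nervous system Sall1 is known as an identity factor of microglia, the resident macrophages, where its expression depends on TGF-beta signalling. In the embryo Sall1 is needed for kidney development. Sall2 has roles in neural development and the cell cycle, Sall3 in cranial nerve and retinal neuron development, and Sall4 in embryonic stem cells and germ cells. Runx1, the factor immunoprecipitated, is a DNA-binding regulator of blood and myeloid cells.

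The start sites of Sall1 lay inside the widest Sall region and that of Sall2 lay beside a short weak region, so their promoter sequences are shown first. RefSeq promoter windows (GRCm38.p6), each with 250 bases before a start site and 50 after it, matched 2 of the 4 genes, Sall1 with 3 windows and Sall2 with 2. All are on the minus strand and printed 5′ to 3′, with every CpG dinucleotide in capitals.
Sall1, upstream start site, chr8:89044113-89044412: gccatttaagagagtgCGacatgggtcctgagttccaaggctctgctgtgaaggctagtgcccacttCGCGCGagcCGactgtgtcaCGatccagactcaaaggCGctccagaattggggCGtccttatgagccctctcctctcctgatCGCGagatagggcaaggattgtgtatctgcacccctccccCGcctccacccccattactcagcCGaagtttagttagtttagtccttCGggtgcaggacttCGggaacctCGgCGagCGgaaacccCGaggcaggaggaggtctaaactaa
Sall1, middle start site, chr8:89043463-89043762: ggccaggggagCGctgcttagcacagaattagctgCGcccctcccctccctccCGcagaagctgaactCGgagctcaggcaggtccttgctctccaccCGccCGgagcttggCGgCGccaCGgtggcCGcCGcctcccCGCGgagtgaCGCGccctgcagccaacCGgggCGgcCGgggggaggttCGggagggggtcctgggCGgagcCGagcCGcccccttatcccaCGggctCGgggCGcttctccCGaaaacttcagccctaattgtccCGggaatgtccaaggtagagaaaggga
Sall1, downstream start site, chr8:89042813-89043112: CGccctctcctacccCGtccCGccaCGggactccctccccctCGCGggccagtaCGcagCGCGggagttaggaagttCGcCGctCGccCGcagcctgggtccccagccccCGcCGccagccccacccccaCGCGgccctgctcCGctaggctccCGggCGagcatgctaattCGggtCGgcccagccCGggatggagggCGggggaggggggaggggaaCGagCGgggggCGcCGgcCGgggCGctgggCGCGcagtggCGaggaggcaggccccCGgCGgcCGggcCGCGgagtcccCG
Sall2, start site of the assigned transcript, chr14:52316274-52316573: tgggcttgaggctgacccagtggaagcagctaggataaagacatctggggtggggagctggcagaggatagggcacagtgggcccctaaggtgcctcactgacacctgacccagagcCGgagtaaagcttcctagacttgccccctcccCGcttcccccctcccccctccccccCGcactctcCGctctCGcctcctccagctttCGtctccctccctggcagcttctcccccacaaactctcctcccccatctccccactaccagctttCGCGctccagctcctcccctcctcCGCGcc
Sall2, upstream start site, chr14:52328621-52328920: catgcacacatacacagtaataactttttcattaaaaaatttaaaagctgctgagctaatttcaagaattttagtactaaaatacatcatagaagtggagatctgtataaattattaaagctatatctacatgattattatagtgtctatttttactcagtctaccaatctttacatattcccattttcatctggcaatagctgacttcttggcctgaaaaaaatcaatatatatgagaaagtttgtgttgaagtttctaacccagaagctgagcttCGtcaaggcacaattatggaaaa

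The 3 Sall1 windows held 18, 27 and 39 CpG dinucleotides in the direction of transcription, against a median of 7 over 32851 windows of the same table. Of all windows, 71.9%, 85.8% and 96.1% held as many or fewer. The share of G and C bases was 57.3%, 70.0% and 79.7%, against a median of 52.7% over all windows. The Sall2 window at the assigned transcript held 10 CpG dinucleotides with 65.0% G and C, and the other Sall2 window held 1 with 30.3%. All 300 bases of each Sall1 window lay inside a region of replicate 3. In replicate 2, 64 bases of the first window and 0 bases of the others did. Neither Sall2 window overlapped a region in any replicate. The 6-base core TGTGGT of the Runx motif was searched on both strands and was in 0 of the 5 windows, against 16.8% of all windows. Its 7-base extension TGTGGTT, which contains the core, was in 0 of 5 against 5.27%, and the alternative core TGCGGT was in 0 of 5 against 6.45%. These counts say only that the letters are not in these windows.

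Sall1 carried regions in replicates 2 and 3 and was the only Sall gene with a region in more than 1 replicate. Values at each region are the authors' fold over background at its strongest summit, the point of highest signal, and they rank a region within its own list. The summit pileup, the number of overlapping fragments, was solved from the deposited fold and p-value. The fold was taken as the pileup plus 1, divided by the background plus 1. The exact 95% Poisson interval of the pileup was carried to the fold. These intervals cover counting error only and treat the background as fixed. Distances below run along the direction of transcription from the start of the Sall1 transcript used by the authors (ENSMUSG00000031665, chromosome 8, position 89044162, minus strand, GRCm38).

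In replicate 2 the 5 Sall1 regions formed a row of separate blocks from the second intron to just upstream of the start. None of them contained the start. The region farthest downstream (chr8:89036750-89037921) peaked 6670 bp from the start, where 17 fragments gave a fold of 4.41 (interval 2.67 to 6.92). The next (chr8:89038289-89039206) had a fold of 5.29 (3.43 to 7.83) and a pileup of 23, and the third (chr8:89039562-89040231) the highest of the gene, 5.48 (3.59 to 8.05) with a pileup of 24, 4274 bp from the start. All 3 were annotated to intron 2 of 3. The fourth (chr8:89040866-89041548) had a fold of 4.11 (2.52 to 6.37) and was placed in the promoter class at 2 to 3 kb. The fifth (chr8:89044349-89044991) lay upstream of the start, with its summit 668 bp before it and a fold of 3.52 (2.13 to 5.51). The intervals of all 5 overlapped, although the fold of the fifth, 3.52, lay just below the lower limit of the third, 3.59. The order of the folds was not tested. Within the list of replicate 2, these folds stood at the 68.2, 88.1, 90.3, 55.5 and 22.7 percentiles.

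The blocks of replicate 2 covered 4.09 kb in all, the 12th largest length assigned to any of 1129 coding genes with a region in that replicate, whose median was 0.438 kb. At least 5 regions were assigned to 7 of 21887 coding genes in replicate 2 (0.0320%), Sall1 among them. The first 4 blocks were separated by 367, 355 and 634 bp. A longer gap of 2800 bp followed between the fourth block and the fifth, and it held all 3 Sall1 start sites shown above.

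Replicate 3 had a single region over the same stretch. It spanned 10420 bp (chr8:89034947-89045366) with 26 summits, and 88.4% of its length lay in the Sall1 gene as RefSeq gives it. By width it ranked 8th of the 13194 regions of replicate 3, and by fold 95th. Of 21887 coding genes, 265 had a region of at least 2 kb in replicate 3 (1.21%) and 7 had one of at least 10 kb (0.0320%). Since the breadth of this region was known when the genes were chosen, these ranks describe it and nothing is read from them. Among the 355 regions of at least 2 kb, 7 were wider and 28 had a higher fold. Its width came to 401 bp per summit, against a median of 453 bp per summit over those 355 regions. Neighbouring summits were 185 to 734 bp apart, with a median of 388 bp.

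**Figure D1:**
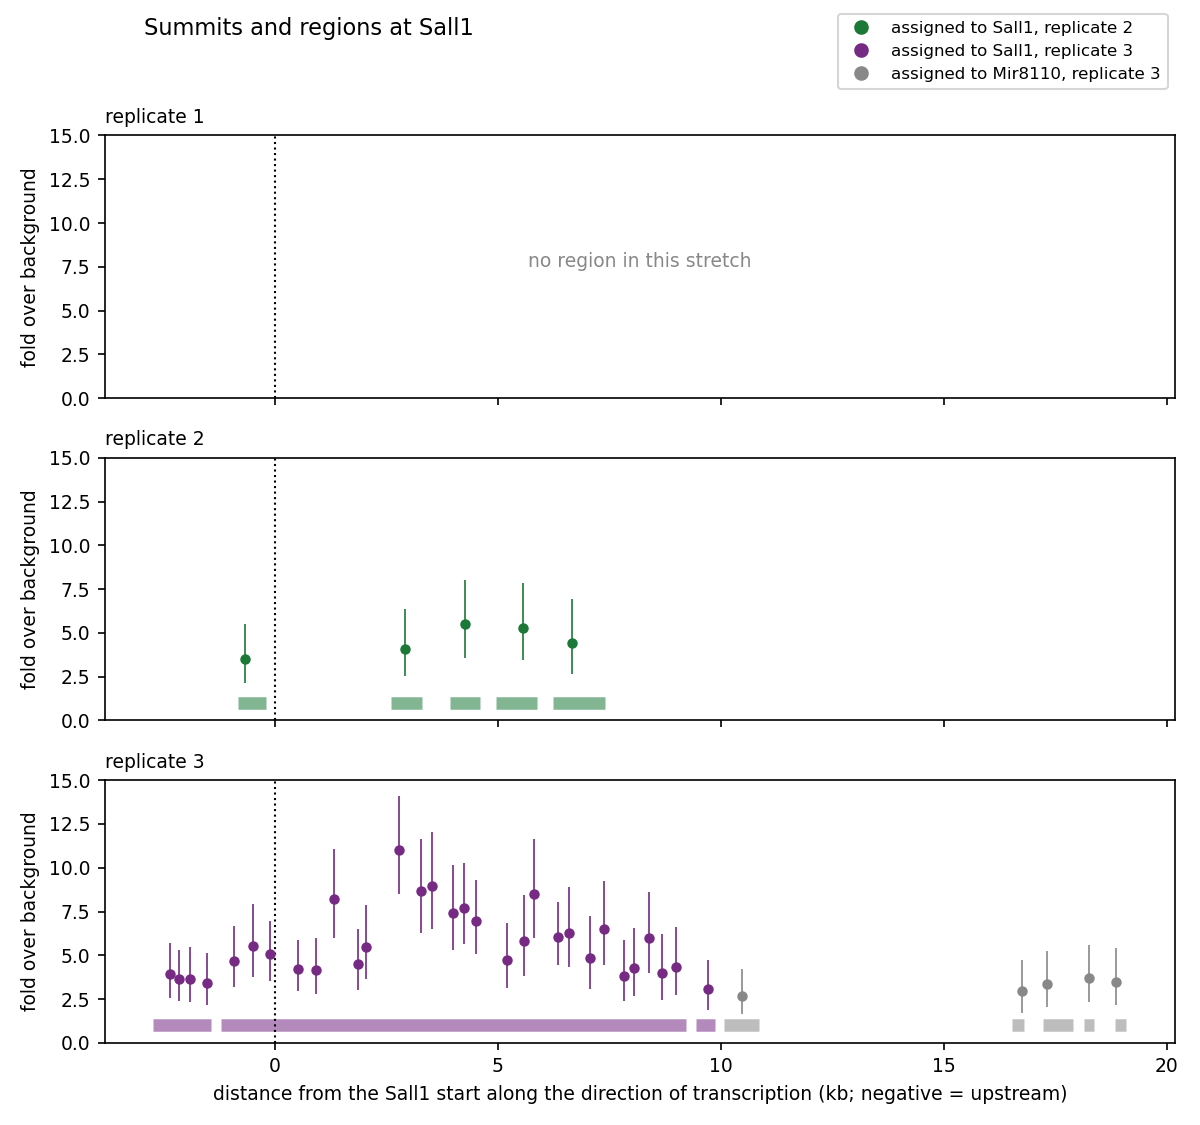
Fold over background (vertical axis) of each summit at Sall1 against distance from the start in kb (horizontal axis), for replicates 1, 2 and 3 from top to bottom. Points are summits with exact 95% Poisson intervals, thick bars are regions, the dotted line is the start, and grey marks regions assigned to Mir8110. The highest point is the fold of 11.0 in replicate 3, 2777 bp downstream of the start, and replicate 1 has no region in the stretch.

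Folds along the broad region of replicate 3 peaked inside the gene and not at the start. The strongest summit, 2777 bp downstream, had a fold of 11.0 (interval 8.49 to 14.1), with a pileup of 62 fragments and a background of 4.72. Its 2 neighbours farther into the gene had folds of 8.66 and 8.97. The zone from 2.5 to 5 kb downstream, whose limits were set after the values were seen, held 6 summits with folds of 6.93 to 11.0 and a median of 8.18. From 5 to 7 kb, 5 summits had folds of 4.72 to 8.49, and beyond 7 kb, 7 summits had folds of 3.81 to 6.49. Between the start and 2.5 kb, 5 summits had folds of 4.15 to 8.23. The 3 summits upstream of the start had folds of 4.69, 5.55 and 5.05. The interval of the strongest summit did not overlap those of the 3 upstream summits, the highest of which ran from 3.75 to 7.94. The strongest was picked as the highest of 26 summits, a choice that its interval does not cover.

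The start sites printed above differed in the summit they held in replicate 3. The window of the downstream start site, the richest in CpG dinucleotides, held a summit with a fold of 8.23 (interval 5.96 to 11.1). The middle window held a summit of 4.21 (2.94 to 5.86) and the upstream window a summit of 5.05 (3.56 to 6.97). The intervals of the downstream and middle windows did not overlap, while those of the downstream and upstream windows did. Background levels at these summits were 4.10 fragments in the downstream window, 7.08 in the middle window and 6.13 in the upstream window, and pileups were 41, 33 and 35. The lower folds of the middle and upstream windows thus stood beside higher backgrounds, whose part in the folds was not tested.

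Beyond the broad region, replicate 3 had 2 further regions assigned to Sall1. The upstream region (chr8:89045586-89046887) began 219 bp past the broad region, spanned 1302 bp and had 4 summits with folds of 3.39, 3.64, 3.65 and 3.90. The downstream region (chr8:89034302-89034728) was 427 bp wide with a fold of 3.07, in intron 2 of 3. Together the 3 regions covered 12.1 kb with 31 summits, of which 24 lay downstream of the start and 7 upstream. The median fold was 5.89 over the downstream summits and 3.90 over the upstream ones. Sall1 ranked 17th in covered length and 67th in strongest fold among 6868 coding genes with a region in replicate 3, whose medians were 0.593 kb and 4.04.

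The authors' assignment left part of the Sall1 gene under another name. In replicate 3, 5 regions around the 3′ part of Sall1 were assigned to Mir8110, a microRNA gene on the opposite strand downstream of Sall1. The mature miRNA is shown because it names those regions, with its seed, bases 2 to 8, in capitals (RefSeq, GRCm38.p6, chr8:89024791-89024811, plus strand).
mmu-miR-8110: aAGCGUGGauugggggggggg
Of the 5 regions, 2 lay inside the RefSeq gene Sall1. The region of 785 bp annotated to exon 3 of 4 of Sall1 (chr8:89033302-89034086) had a fold of 2.70 (interval 1.64 to 4.24). The region of 270 bp near the gene's 3′ end (chr8:89027359-89027628) had a fold of 2.95 (1.73 to 4.74). The other 3 lay 303 to 1916 bp past the 3′ end with folds of 3.35, 3.70 and 3.49. All 5 were weaker than the median summit of the regions assigned to Sall1, 5.05. With them, regions of replicate 3 covered 10698 bp of the RefSeq gene (63.2%), against 3443 bp (20.3%) for the regions of replicate 2.

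Every Sall1 region of replicate 2 lay wholly inside the broad region of replicate 3. The summits also fell close together: the distance from each replicate 2 summit to the nearest replicate 3 summit was 84, 29, 32, 143 and 178 bp, from the region farthest downstream to the upstream one. The folds at those nearest summits of replicate 3 were 6.28, 5.80, 7.70, 11.0 and 5.55, from pileups of 30, 25, 44, 62 and 28 fragments. In replicate 2 the pileups were 17, 23, 24, 18 and 17 fragments. The block with the highest fold in replicate 2 was thus the third, while in replicate 3 the summit nearest the fourth was the highest. Of the 26 summits of the broad region, the 13 inside replicate 2 regions had folds of 4.72 to 11.0 with a median of 6.49, and the 13 outside had folds of 3.81 to 8.97 with a median of 4.52. The 2 ranges overlapped widely. The long gap of replicate 2 held 6 summits of replicate 3 with folds of 4.15 to 8.23. Since neighbouring summits of replicate 3 were at most 734 bp apart, any point in the row lay near one, and these distances were not tested.

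Replicate 1 had no region at Sall1. Its nearest region to the gene lay 5.03 Mb away and was assigned to Samd1. The list of replicate 1 reached down to 13 fragments at a summit, a fold of 3.04 and a −log10 p of 6.02, and the 5 Sall1 regions of replicate 2 had a −log10 p of 6.43 to 12.9. Of the 451 regions of replicate 1, 301 (66.7%) had a fold at or below 5.48, the highest Sall1 fold of replicate 2. Signal at Sall1 in replicate 1 was therefore not called, and a level under its threshold was not measured. Median summit backgrounds were 3.47, 4.12 and 5.66 fragments in replicates 1, 2 and 3, and the lists covered 172, 891 and 8460 kb. The number of Sall genes with a region, 0, 1 and 3 of 4 in replicates 1, 2 and 3, stood beside 1.51%, 5.16% and 31.4% of 21887 coding genes. In at least 2 replicates it was 1 of 4, against 5.43% of coding genes.

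**Figure D2:**
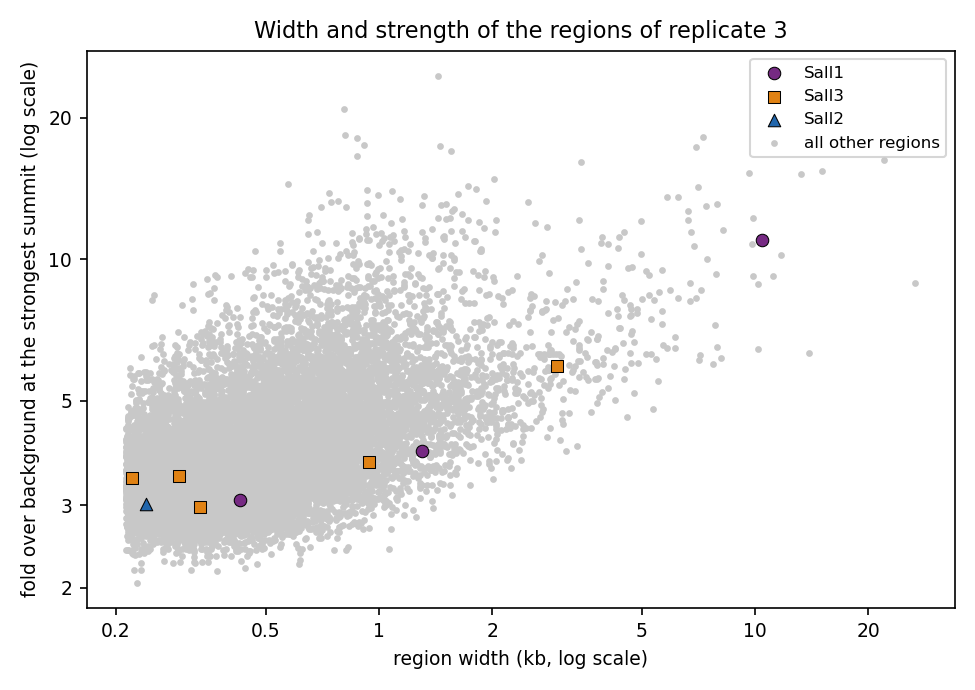
Fold at the strongest summit (vertical axis, log scale) against region width in kb (horizontal axis, log scale) for the 13194 regions of replicate 3, with regions of Sall1, Sall3 and Sall2 marked. The broad Sall1 region (10420 bp, fold 11.0) stands far to the right, the widest Sall3 region (2982 bp, fold 5.92) is next, and the single Sall2 region (241 bp, fold 3.02) lies among the narrow weak ones.

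Sall3 (ENSMUSG00000024565) had regions in replicate 3 alone, and all of them lay inside the gene. The widest (chr18:80982908-80985889) spanned 2982 bp with 7 summits from 1013 to 2791 bp downstream of the start. Their folds, in the direction of transcription, were 3.39, 5.25, 4.12, 5.92, 4.20, 3.83 and 4.39. The strongest, 5.92 (interval 4.06 to 8.37) from a pileup of 30 fragments, lay 1861 bp into the gene. The authors placed this region in the promoter class within 1 kb, although its nearer edge was 689 bp downstream and it did not reach the start. The intervals of the 7 summits overlapped one another.

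The other 4 Sall3 regions lay deeper in intron 1 of 3. In the direction of transcription their strongest folds were 3.43, 3.70, 2.98 and 3.46, and the summits lay 4338, 4926, 6439 and 11486 bp from the start. Widths were 221, 943, 334 and 294 bp. All 4 folds were below 3.81, the median of the list, while the widest region of the gene stood at the 89.4 percentile. Together the 5 regions covered 4.77 kb, or 23.8% of the RefSeq gene. At least 5 regions were assigned to 219 of 21887 coding genes in replicate 3 (1.00%), Sall3 among them. The nearest region of replicate 2 to Sall3 was 1.57 Mb away, at Mbp, and that of replicate 1 was 5.60 Mb away, at Smad7.

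At both Sall1 and Sall3 in replicate 3, the strongest summit lay downstream of the start and inside the first part of the gene. How many other genes have this layout was not counted, and all 12 Sall3 summits lay downstream. At Sall1 it lay 2777 bp in and at Sall3 1861 bp in. The intervals of their strongest folds were 8.49 to 14.1 for Sall1 and 4.06 to 8.37 for Sall3. Each is the highest of its gene's summits, 31 for Sall1 and 12 for Sall3, and the family was selected on the breadth of Sall1. The intervals do not cover this choice, so no difference between the genes is read from them. Signal upstream of the start was called for Sall1, with 7 summits, and for Sall3 with 0. Both comparisons are within 1 library.

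**Figure D3:**
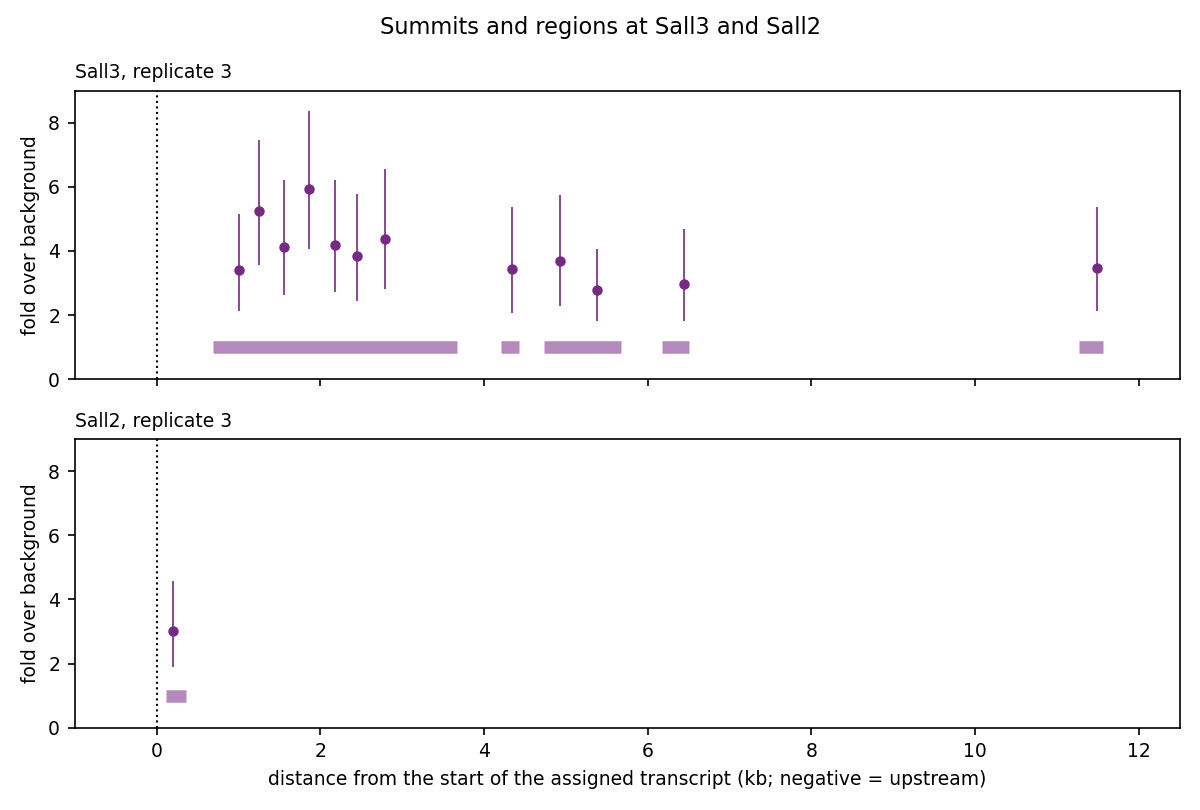
Fold over background (vertical axis) of each summit against distance from the start of the assigned transcript in kb (horizontal axis) in replicate 3, for Sall3 above and Sall2 below. Points carry exact 95% Poisson intervals and thick bars are regions. The 7 summits of the widest Sall3 region lie 1013 to 2791 bp into the gene with folds of 3.39 to 5.92, and Sall2 has a single summit of 3.02.

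Sall2 (ENSMUSG00000049532) had 1 region, in replicate 3, at a start site inside the gene. The region (chr14:52315967-52316207) was 241 bp wide with a fold of 3.02 (interval 1.902 to 4.59). Its summit had a pileup of 20 fragments and a background of 5.95. Its summit lay 206 bp downstream of the start of a short transcript at 52316323, the start of the fourth window printed above. RefSeq also gives a start 12347 bp farther upstream, where no region was called. The fold stood at the 15.4 percentile of the list of replicate 3. Its interval did not overlap that of the strongest Sall1 summit and did overlap that of the strongest Sall3 summit. Those 2 summits were picked as the highest of their genes, a choice that the intervals do not cover. In the same replicate, Mettl3, a neighbouring gene downstream of Sall2 that encodes an RNA methyltransferase, had a promoter region with a fold of 4.72.

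Sall4 had no assigned region in any replicate. The gene lies on chromosome 2 (168748332 to 168767201, GRCm38.p6), and the nearest region of replicate 3 was 14.1 kb away, at the promoter of Atp9a, which encodes a P4-type ATPase, with a fold of 3.39. In replicates 1 and 2 the nearest region was 541 kb away, at the promoter of Adnp, with folds of 4.97 and 4.71. With regions at 31.4% of coding genes in replicate 3, a single gene without a region is common, and absence of binding was not shown.

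Genes linked to SALL proteins or to Sall1 in microglia were taken from 3 lists. These were the NuRD complex, TGF-beta and SMAD signalling, and microglial transcription factors. Each count below is to be read against the 1.51%, 5.16% and 31.4% of coding genes with a region in replicates 1, 2 and 3. Of 15 NuRD complex genes, 0, 1 and 11 had a region in these replicates. The median strongest fold of those 11 in replicate 3 was 4.77, against 4.04 over the 6868 coding genes with a region. The highest belonged to Mta2, a NuRD scaffold subunit, at 9.20, and Cdk2ap1 followed at 7.76. Hdac1, a catalytic subunit, was the member with regions in more than 1 replicate, with folds of 4.19 in replicate 2 and 3.41 in replicate 3. No NuRD gene had a region of at least 2 kb in replicate 3, where 1.21% of 21887 coding genes had one. With so low a share, nothing is read from this. The widest NuRD region, 1143 bp, was at the histone-binding subunit gene Rbbp4. Mta2, Cdk2ap1 and Rbbp4 were chosen after their values were seen.

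Of 13 genes of TGF-beta and SMAD signalling, the pathway upstream of Sall1 in microglia, 1, 2 and 6 had a region in replicates 1, 2 and 3. Their median strongest fold was 4.26 in replicate 3. Smad7, the inhibitory SMAD, had regions in every replicate, with folds of 4.47, 6.45 and 13.1 in replicates 1, 2 and 3. These covered 1.16, 4.99 and 15.7 kb, and in replicate 3 they numbered 13. Ski, a SMAD corepressor, had folds of 3.90 in replicate 2 and 18.4 in replicate 3. The receptor gene Tgfbr1 had a region in replicate 3 with a fold of 3.62, and Smad3 had one with a fold of 2.94. Smad4, which encodes the shared partner of receptor-activated SMADs, and the ligand gene Tgfb1 had none.

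Of 15 microglial transcription factor genes, 2, 1 and 9 had a region in replicates 1, 2 and 3, with a median strongest fold of 3.78 in replicate 3. Bhlhe41, a basic helix-loop-helix repressor, had folds of 5.04, 6.72 and 7.84 in replicates 1, 2 and 3, and its region of replicate 3 was 4861 bp wide. Mef2a, a MADS-box factor, had folds of 3.58 in replicate 1 and 5.42 in replicate 3. Spi1 and Irf8, myeloid lineage factors, had no region. The strongest Sall1 fold of replicate 3 was above that of each of the 9. That fold is the highest of 31 summits, and the family was selected on the breadth of the same Sall1 region. Nothing is therefore read from this order. Smad3 belongs to this list and to the preceding one.

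Markers of cell types stood beside the Sall1 result as follows, where 1.51%, 5.16% and 31.4% of all coding genes had a region in replicates 1, 2 and 3. Of 10 microglial markers, 0 had a region in replicate 1, and Sall1 itself was the 1 with a region in replicate 2. The microglial count in replicate 3, where Sall1 also had a region, is not reported here. Of these 10, P2ry12, Tmem119, Cx3cr1 and Csf1r had none in any replicate. They are examples chosen after their values were seen. With regions at 31.4% of coding genes in replicate 3, genes without a region are common, and absence of binding was not shown. Of 10 oligodendrocyte markers, 0, 8 and 10 had a region in replicates 1, 2 and 3, with strongest folds of 5.39 to 13.7 in replicate 3. Neuronal markers numbered 1, 2 and 9 of 10, astrocyte markers 0, 1 and 5 of 10, and endothelial markers 0 of 10 in each. The libraries came from dissociated cord with no sort named in the labels, so the cell type behind the Sall1 regions was not tested, nor was the part played by oligodendrocyte chromatin. In such chromatin, fewer cells of a type and less signal per cell cannot be told apart.

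The coding genes most like Sall1 were found by Euclidean distance over 6 values, the log2 strongest fold and the log2 of 1 plus the kb covered in each of the 3 replicates, with 0 where no region was assigned. The median distance to Sall1 over 6955 coding genes with a region was 4.77. Car2, which encodes carbonic anhydrase 2, was nearest at 0.45, with folds of 6.66 and 12.3 and lengths of 5.02 and 10.4 kb in replicates 2 and 3. Meis1, a TALE homeobox gene, followed at 0.47 with folds of 6.67 and 10.8 and lengths of 5.06 and 9.81 kb. Glul, which encodes glutamine synthetase, was at 0.50, Cpeb2, an mRNA-binding protein gene, at 0.54 and Map7, a microtubule-associated protein gene, at 0.60. None of the 5 had a region in replicate 1. In replicate 2 Sall1 had 5 regions against 3, 2, 3, 3 and 2, and it covered 4.09 kb against 5.02, 5.06, 3.66, 4.43 and 3.22 kb. In replicate 3 it had 3 regions against 3, 1, 3, 3 and 7, and it covered 12.1 kb against 8.16 to 10.4 kb. Among these 6 genes, Sall1 had the most regions in replicate 2 and the greatest length in replicate 3. Map7 had the most regions in replicate 3, and Car2, Meis1 and Cpeb2 covered more than Sall1 in replicate 2. Since Sall1 was selected on its breadth and the 5 genes on closeness in these values, this order is description only. Among the 6868 coding genes with a region in replicate 3, Sall1 ranked 17th in covered length.

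**Figure D4:**
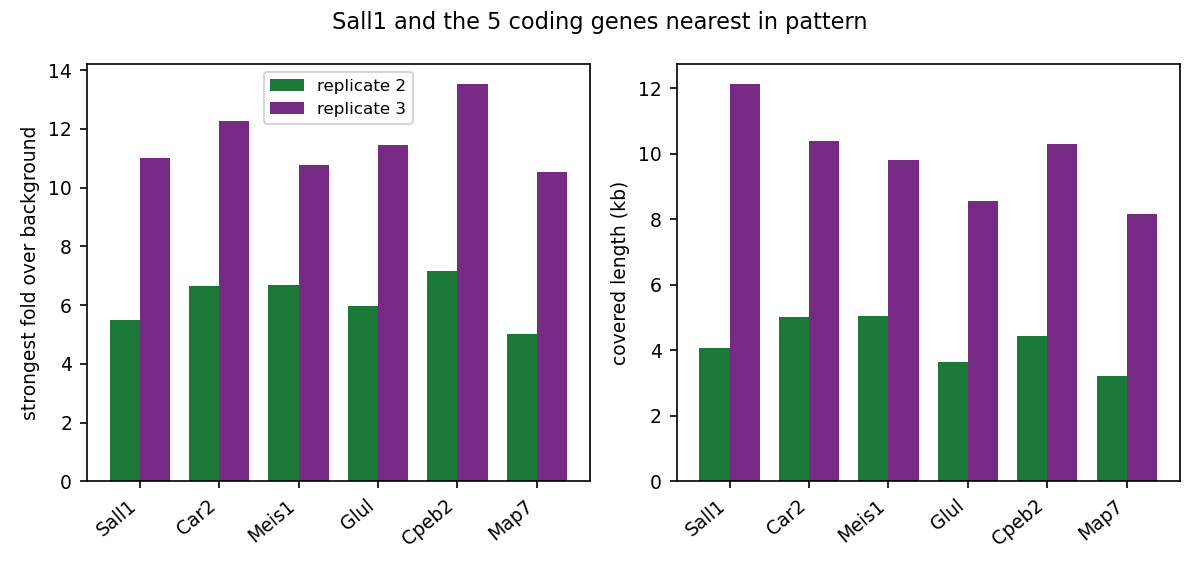
Strongest fold over background (left) and covered length in kb (right) for Sall1 and the 5 coding genes nearest to it in pattern, in replicates 2 and 3. Bars are single values of 1 library each and carry no error. Sall1 has folds of 5.48 and 11.0, and its 12.1 kb in replicate 3 is above the 8.16 to 10.4 kb of the other 5 genes. Those 5 were picked for closeness to Sall1 in these values, and Sall1 was selected on its breadth.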

How the data were processed

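Spinal cord Runx1 ChIP-seq gave 3 replicates in 1 group. Build GRCm38 and the tools MACS2 2.1.2, Picard 2.18.26, SAMtools 1.9, Bowtie2, FastQC and Trimmomatic 0.38 are listed in the submitters' processing notes; settings and the calling control are not stated in those notes or labels. The authors deposited a peak list per replicate with an integer score, a ratio over background (the fold), a −log10 p, a −log10 q and a summit offset, and an annotated table with a gene per region. Values are those of single libraries, read depth was not given, and no test between groups was possible.

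Starts were changed to count from 1. Regions were given the fold of their strongest summit. Pileup and background were solved from the deposited fold and −log10 p under a Poisson model. In it the fold is the pileup plus 1, divided by the background plus 1. In each list 100% of summits had a solution within 0.001, and 100% of 500 simulated summits were recovered. The simulated summits were made with the same model, so their recovery checks the solving step only. Coding symbols matched RefSeq (GRCm38.p6) in 98.8%, 99.7% and 99.1% of cases in replicates 1, 2 and 3. The members and lists were chosen with earlier results of these data known. Named genes were the 4 Sall genes, list genes with regions in at least 2 replicates and the 5 nearest to Sall1 in pattern; others are given as examples chosen after their values were seen. Alternatives were a q of 1e-05, a fold of 5, assignment by RefSeq gene body with 1 kb around it, other summits, other definitions of overlap and motif, and leaving out each replicate. Protein sequences were not used here, and 1 marker gene is not reported here. Scripts ran in Python 3.11.15 with scipy 1.17.1, pandas 2.3.3, numpy 2.4.6 and matplotlib 3.10.9.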

Additional observations from a re-analysis of the deposited data

How the results depend on the processing

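Sall1 was the gene with regions in at least 2 replicates under each limit tried on the regions; omitting single replicates gave 0 to 1 such genes, with 0 without replicate 2 and 0 without replicate 3, since both are needed. The number of Sall genes with a region in replicate 3 was 3 as deposited and 2 at a q of 1e-05, at a fold of 5 and at the p limit of replicate 1, where Sall2 dropped out with 0 bp left. At a q of 1e-05 or a fold of 5, covered length fell to 1588 bp for Sall1 in replicate 2 and to 2982 bp for Sall3, while Sall1 in replicate 3 kept 11722 and 10420 bp. Of the summits, 2 of 5 for Sall1 in replicate 2, 16 of 31 for Sall1 in replicate 3, 2 of 12 for Sall3 and 0 of 1 for Sall2 had a fold of at least 5. The summit nearest the start gave a fold of 3.52 for Sall1 in replicate 2, 5.05 for Sall1 in replicate 3 and 3.39 for Sall3. The median over summits was 5.05 for Sall1 in replicate 3 and 3.77 for Sall3. The 5 overlaps of Sall1 regions were unchanged under both other definitions, and the motif counts stayed at 0. These alternatives could show little. Each replicate 2 region lay wholly inside the broad region, so a required share of 50% could not remove any. Summits of replicate 3 were at most 734 bp apart, so a summit within 200 bp was likely anywhere in the row. A count of 0 for TGTGGTT follows from the 0 for TGTGGT, which it contains. The p limit of replicate 1, the summit limit and the TGCGGT core were chosen after seeing the data. No paired analysis was possible because there is 1 group and no test between groups.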

Other observations

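Around Sall1, replicate 3 had 3 more distant regions within 250 kb, all upstream and in distal intergenic sequence. Those at 98.3 and 99.2 kb from the gene were assigned to the pseudogene Gm6625, with folds of 2.80 and 3.09. The region 198 kb away was assigned to the pseudogene Gm5356, with a fold of 3.50. Each fold was below the median of 3.81 of that list, and replicates 1 and 2 had no region within 250 kb outside those assigned to Sall1. Sall3 had 0 regions within 250 kb in any replicate beyond its own. By contrast, the regions within 250 kb of Sall2 in replicate 3 all lay downstream at promoters, those of Hnrnpc, Supt16, Chd8, Tox4 and Mettl3, with folds of 6.46, 5.39, 5.04, 4.02 and 4.72. Hnrnpc, which encodes an RNA-binding protein, also had a region in replicate 2 with a fold of 3.31. The nearness of these regions to the Sall genes does not tie them to the genes.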
